A study of Mus musculus with 10 samples.

Results

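The contacts described here are promoter contacts of bone marrow progenitors that scored 5 or more in both replicates of DM, Flt3-ITD, Npm1c and WT cells and that the neutrophil list does not hold. They numbered 4692 of the 88624 fragment pairs listed for hematopoietic stem and progenitor cells (HSPCs), and are called progenitor contacts below. They started from 2226 captured promoter fragments (baits) and reached 3842 partner fragments (other ends). They were chosen by the scores of all 10 libraries, so their scores and their absence from the neutrophil list are a description and carry no test.

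Promoter-capture Hi-C, which reads which DNA fragments lie close to a promoter in the crosslinked nucleus, was run on HindIII fragments of C57BL/6 mouse bone marrow, with 2 biological replicates in each of 5 groups. The double mutant (DM) HSPCs were Npm1flox-cA/+;Flt3ITD/+;Mx1-Cre+, the Flt3-ITD HSPCs were Flt3ITD/+, the Npm1c HSPCs were Npm1flox-cA/+;Mx1-Cre+, and wild-type neutrophils and WT HSPCs completed the set. HSPCs were lineage-negative cells, a mixture of stem cells and committed progenitors of several lineages, and both cell types were enriched with commercial kits. Mx1-Cre is driven by an interferon-inducible promoter that is not limited to stem cells, and neither Flt3-ITD nor WT mice are labelled as carrying it. The labels do not say how many mice made up a library. Contacts are not expression, so the purity of the cells could not be checked against marker genes.

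Promoters meet distant DNA through chromatin loops and through folding of whole domains, and partners can be enhancers, structural sites or other promoters. Stem and progenitor cells divide and keep several lineages open, while the neutrophil is a non-dividing end cell of the granulocyte lineage with a lobed, compact nucleus. Npm1c, a cytoplasmic form of nucleophosmin, and Flt3-ITD, a constantly active cytokine receptor, are mutations that occur together in acute myeloid leukaemia.

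Each pair carries an interaction score from the authors, whose model is not given in the sources used here. No read counts came with the scores, so the depth is unknown. The neutrophil list (25622 pairs) holds only pairs at 5 or more in both neutrophil replicates. A pair missing from it scored under 5 in at least 1 neutrophil replicate, and its neutrophil score is not known. Over all listed HSPC pairs the median score lay between 4.76 and 5.74 across the 8 HSPC libraries, lowest in WT replicate 2.

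Promoters on which the results below turn are shown as the 300 bases around the gene start (250 before it and 50 after it), from RefSeq on GRCm38.p6, 5′ to 3′ on the gene's strand. Iah1, Rrm2, Rack1, Net1 and Lpin2 were among the 12 gene-bearing baits with the most progenitor contacts, and Calcrl was picked after its values were seen because its bait has no neutrophil pair. Lower case is plain sequence. Capitals mark the GC box GGGCGG (a letter pattern bound by Sp and Klf proteins), the ETS core CCGGAA and the E-box CACGTG, each searched on both strands with overlaps allowed.
Iah1 (chr12:21316142-21316441, plus strand): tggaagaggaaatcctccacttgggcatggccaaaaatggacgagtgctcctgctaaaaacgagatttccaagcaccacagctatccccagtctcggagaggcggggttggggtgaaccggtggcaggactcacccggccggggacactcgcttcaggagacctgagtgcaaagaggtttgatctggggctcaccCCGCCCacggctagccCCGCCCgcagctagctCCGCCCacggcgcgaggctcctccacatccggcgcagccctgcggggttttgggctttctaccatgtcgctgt
Rrm2 (chr12:24708004-24708303, plus strand): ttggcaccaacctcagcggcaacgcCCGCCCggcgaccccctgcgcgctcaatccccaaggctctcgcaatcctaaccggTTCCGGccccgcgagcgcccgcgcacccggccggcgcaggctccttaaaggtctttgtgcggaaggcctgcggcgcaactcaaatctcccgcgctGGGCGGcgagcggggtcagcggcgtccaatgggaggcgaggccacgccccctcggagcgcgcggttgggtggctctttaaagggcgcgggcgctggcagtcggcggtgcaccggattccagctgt
Rack1 (chr11:48800110-48800409, plus strand): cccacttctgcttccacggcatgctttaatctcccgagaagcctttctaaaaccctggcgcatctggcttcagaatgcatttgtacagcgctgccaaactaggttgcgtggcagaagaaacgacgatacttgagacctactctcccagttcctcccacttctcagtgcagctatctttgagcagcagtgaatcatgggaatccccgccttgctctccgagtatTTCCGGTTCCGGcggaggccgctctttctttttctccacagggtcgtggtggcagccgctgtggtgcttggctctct
Net1 (chr13:3918171-3918470, minus strand): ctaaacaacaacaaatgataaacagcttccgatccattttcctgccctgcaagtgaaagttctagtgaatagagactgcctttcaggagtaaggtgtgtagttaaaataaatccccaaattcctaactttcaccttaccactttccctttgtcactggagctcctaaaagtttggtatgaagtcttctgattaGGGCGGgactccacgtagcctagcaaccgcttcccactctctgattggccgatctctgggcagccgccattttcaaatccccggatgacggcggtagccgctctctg
Lpin2 (chr17:71183282-71183581, plus strand): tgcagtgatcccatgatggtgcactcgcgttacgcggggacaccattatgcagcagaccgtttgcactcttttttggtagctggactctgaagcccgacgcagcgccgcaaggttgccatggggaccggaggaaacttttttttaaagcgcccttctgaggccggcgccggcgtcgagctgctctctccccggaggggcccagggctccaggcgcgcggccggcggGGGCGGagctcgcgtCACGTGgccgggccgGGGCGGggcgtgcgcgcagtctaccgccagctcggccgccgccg
Calcrl (chr2:84425217-84425516, minus strand): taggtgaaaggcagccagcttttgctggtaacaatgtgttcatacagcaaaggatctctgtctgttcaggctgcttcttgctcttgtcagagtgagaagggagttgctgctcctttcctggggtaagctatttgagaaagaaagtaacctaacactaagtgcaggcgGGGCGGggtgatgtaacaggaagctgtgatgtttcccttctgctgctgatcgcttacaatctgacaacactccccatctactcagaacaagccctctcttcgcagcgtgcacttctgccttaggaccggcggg
The GC box letters occurred 3 times in the Iah1 window, and 2 ETS cores lay side by side in the Rack1 window. Over the 1888 promoters on baits with a progenitor contact, 59.2% held a GC box, against 57.3% of the 9884 promoters on all HSPC baits and 46.2% of all 21263 protein-coding promoters. ETS cores were in 26.3% of the promoters with a progenitor contact, 24.7% on all HSPC baits and 18.7% of all promoters. The CCAAT/enhancer-binding letter pattern TTGCNNAA was in 7.89%, 8.31% and 10.2% of the same 3 sets. The shares differed more between HSPC baits and all promoters than between baits with a progenitor contact and all HSPC baits. They are matches of letters, not binding sites.

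In the 4 HSPC groups 9049 pairs reached 5 in every library, and 51.9% of them were progenitor contacts. The other 4357, which the neutrophil list also holds, are called shared contacts. Progenitor contacts were longer, with a median distance from bait to other end of 174 kb (quartiles 89.6 and 273 kb), against 148 kb for shared contacts (79.6 and 230 kb). The remaining 69839 HSPC pairs that neutrophils do not list had a median of 237 kb. Of the progenitor contacts 89 spanned more than 1 Mb and 15 joined different chromosomes or unplaced sequence.

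The share of kept pairs that neutrophils lack changed with both distance and score. Below 200 kb it lay between 47.1% and 49.9% in 4 distance classes. It was 55.9% at 200 to 300 kb, 61.0% at 300 to 500 kb and 68.6% at 500 to 1000 kb, then 56.0% of the 159 pairs beyond 1 Mb. By the lowest score over the 8 HSPC libraries it was 62.5% at 5 to 5.5 and 18.3% of the 120 pairs at 15 or more. Within a class of score the share still changed with distance. Among pairs whose lowest score was 8 or more, 25.9% were missing from neutrophils within 200 kb, 31.0% at 200 to 300 kb and 41.5% at 300 to 1000 kb. Many progenitor contacts lay close to the threshold: 1575 had a lowest score of 5 to 5.5, and 2615 unlisted pairs lay just below at 4.5 to 5. The member nearest the threshold was a contact of Ceacam16 at 5.00, and the nearest pair outside was one of Glod5 at 4.9996.

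**Figure D1:**
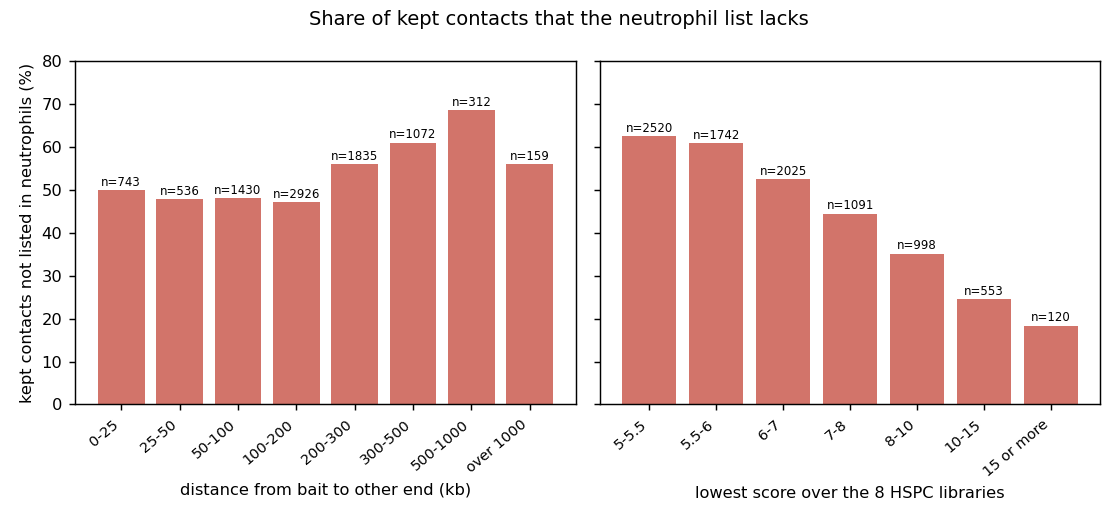
Share of contacts kept in all 4 HSPC groups that the neutrophil list lacks, in percent, by distance in kb (left) and by the lowest score over 8 HSPC libraries (right); n is the number of kept contacts. The share reached 68.6% at 500 to 1000 kb and was 18.3% at scores of 15 or more.

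The scores of the progenitor contacts were spread alike in the 4 HSPC genotypes. Their medians were 8.39 and 8.58 in DM, 9.27 and 9.00 in Flt3-ITD, 8.35 and 9.18 in Npm1c and 8.30 and 7.84 in WT libraries. Both Flt3-ITD libraries lay above both DM and both WT libraries, and the Npm1c replicates spanned most of that range. Shared contacts scored higher in each library, between 8.73 and 10.8, and at 9.18 and 8.70 in neutrophils. WT held the lowest of the 4 group means for 36.1% of progenitor contacts and Flt3-ITD for 13.9%. WT replicate 2 was the lowest single library for 21.2% of them. Rank correlations over the members were 0.322 to 0.503 between replicates and 0.190 to 0.531 between libraries of different genotypes, so replicates ranked these contacts no more alike than some libraries of different genotypes did. All points share the floor of 5 set by the rule.

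**Figure D2:**
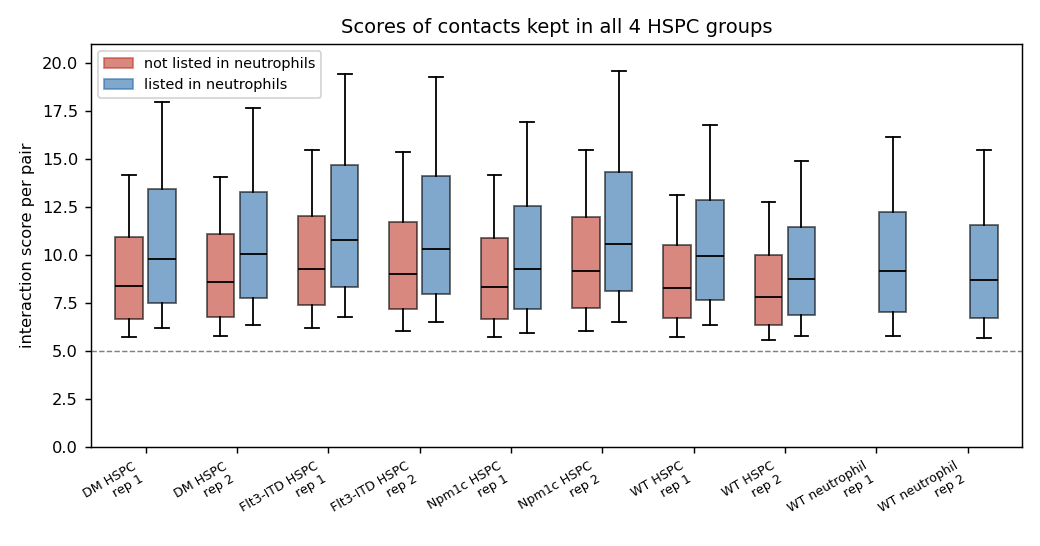
Interaction score per pair in each library for progenitor contacts (red) and shared contacts (blue); boxes are quartiles with the median, whiskers the 10th and 90th percentiles, and the dashed line is the threshold of 5. Medians of the progenitor contacts ran from 7.84 to 9.27; the neutrophil libraries have no red box because their scores for these pairs are not known.

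No progenitor contact passed the test for a difference between a mutant and WT. The test was limma on log2(score + 1) over all 88421 pairs on assembled autosomes and X, with Benjamini-Hochberg adjusted p under 0.05. Of the 4678 progenitor contacts tested (14 with unplaced sequence were not), 0 were called in DM, Flt3-ITD or Npm1c against WT. Across all pairs 0.42% were called higher and 0.156% lower in DM, 0.477% and 0.0905% in Flt3-ITD, and 0.225% and 0.0848% in Npm1c. In numbers of pairs these were 371 higher and 138 lower in DM, 422 and 80 in Flt3-ITD and 199 and 75 in Npm1c. After quantile normalization the split was more even, at 192 higher and 151 lower in DM, 279 and 169 in Flt3-ITD and 150 and 98 in Npm1c. Because a member had to reach 5 in all groups, the rule itself removed pairs with strong differences, and nothing is read from the 0. At an unadjusted limma p under 0.05 there were 214 of the 4678 members for DM, 213 for Flt3-ITD and 147 for Npm1c. Of all 88421 pairs there were 17204 (19.5%), 12524 (14.2%) and 11027 (12.5%). Both Flt3-ITD replicates exceeded both WT replicates at 30.8% of progenitor contacts, against 34.0% of all pairs. The figures were 23.0% against 32.6% for DM and 24.9% against 26.3% for Npm1c. The median ratio of a member's group mean to its WT mean was 1.04 in DM, 1.12 in Flt3-ITD and 1.08 in Npm1c. This direction depended on the scaling. On the log2(score + 1) scale the members' median difference from WT was 0.05 in DM, 0.15 in Flt3-ITD and 0.09 in Npm1c, beside 0.16, 0.23 and 0.12 over all pairs tested. After quantile normalization it was -0.09, -0.03 and -0.02, beside -0.01 over all pairs in each contrast. The scores given per library below are as deposited, with no scaling between libraries.

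For many progenitor contacts the neutrophil list held another pair of the same bait close by. The bait of 73.6% of progenitor contacts had at least 1 pair in the neutrophil list. For 18.6% (872 contacts) the fragment next to the other end was listed from the same bait in neutrophils, and for 43.1% (2021) a listed neutrophil pair ended within 25 kb. Among the remaining unlisted HSPC pairs these shares were 9.02% and 28.4%. Without the contacts that had such a neighbour, or whose reverse pair neutrophils list, 2651 progenitor contacts were left. In the progenitors themselves, 42.5% of progenitor contacts had another progenitor contact of the same bait within 10 kb, against 51.7% for shared contacts counted among themselves.

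Promoter partners were less frequent than among shared contacts. The other end was itself a bait for 29.5% of progenitor contacts, 43.0% of shared contacts and 23.6% of all HSPC pairs. Of the 1382 progenitor contacts that could be read from both ends, 524 were listed in HSPCs from the other side too. In 160 of these both directions were progenitor contacts, which makes 80 contacts seen from both sides. Neutrophils listed the reverse of 59 of the 1382, or 4.27%, against 42.0% for shared contacts.

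The contacts were unevenly spread over promoters. Of the 2226 baits 1313 held 1 progenitor contact and 42 held 10 or more, and those 42 carried 610 contacts, or 13.0%. A neutrophil pair was missing altogether for 687 of the baits (30.9%), against 51.5% of all HSPC baits. Those 687 carried 1241 progenitor contacts, and 128 of them did appear in neutrophils as the other end of another bait.

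Where a gene has no tabulated start, a bait is named for holding an end of the gene, and start and end are not told apart. Among the genes named in the text this holds for Sgk3, Vcpip1, Vars, Celsr1, Ms4a6d, Styk1, Zfp36l2, Car2, Cd4, Fbxo24, Nepro, Ceacam16, Glod5 and S100a14, and it may hold for others given only as partners. Iah1, which encodes an esterase, held the most, with 39 progenitor contacts among 119 HSPC pairs and no neutrophil pair from its bait. Its mean score over the 39 was 11.8 and 9.85 in DM, 12.1 and 22.6 in Flt3-ITD, 16.2 and 17.7 in Npm1c and 11.3 and 13.3 in WT HSPCs. One Flt3-ITD library stood above the rest. Both Npm1c libraries lay above both DM and both WT libraries, and DM overlapped WT, as did Flt3-ITD. The fragment carrying the starts of Mapk11 and Mapk12, stress-activated kinases, followed with 24 of 106 pairs and 12 neutrophil pairs.

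Rrm2, the small subunit of ribonucleotide reductase that makes building blocks for DNA, held 15 progenitor contacts among 52 HSPC pairs. All 15 ended in a single stretch of 69.3 kb across Kidins220 and Mboat2, 215 to 280 kb from the bait (chr12:24923073-24992346, mm10). Their mean score was 10.5 and 11.9 in DM, 14.0 and 12.5 in Flt3-ITD, 12.5 and 14.2 in Npm1c and 11.7 and 14.2 in WT HSPCs. Each mutant group overlapped WT, and both Flt3-ITD and both Npm1c libraries lay above both DM libraries. Neutrophils listed 3 pairs of Rrm2, all in the same stretch, where HSPCs listed 23, so each of the 15 had a neutrophil pair within 25 kb. The strongest of them, 245 kb away within Mboat2, an acyltransferase gene, scored 18.4 and 17.3 in DM, 16.1 and 20.4 in Flt3-ITD, 16.4 and 22.1 in Npm1c and 19.4 and 21.8 in WT HSPCs.

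Rack1, a scaffold protein of the ribosome, held 16 progenitor contacts at a median of 289 kb, and 14 neutrophil pairs. Its largest group of neighbouring contacts, 6 over Ifi47, lay where neutrophils listed none from this bait. Its mean scores over the 16 were 10.3 and 11.3 in DM, 11.6 and 10.2 in Flt3-ITD, 12.3 and 10.7 in Npm1c and 10.8 and 8.76 in WT HSPCs, all within a narrow range. Net1, which encodes an exchange factor for the GTPase RhoA, held 14 contacts, of which 8 fell over Asb13 in a stretch of 23.7 kb with 9 HSPC pairs and 0 neutrophil pairs. The Net1 means were 11.4 and 12.3 in DM, 11.8 and 11.8 in Flt3-ITD, 9.56 and 10.6 in Npm1c and 11.1 and 11.4 in WT HSPCs. The same contact was read from the Asb13 bait, at 15.5 and 20.4 in DM, 15.7 and 21.3 in Flt3-ITD, 18.6 and 11.8 in Npm1c and 24.1 and 20.9 in WT HSPCs. Both WT libraries were above all mutant libraries but 1 for that pair, a Flt3-ITD library at 21.3.

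Lpin2, a phosphatidate phosphatase of lipid synthesis, held 15 contacts from its start and 18 from a second bait inside the gene. Of the first 15, 11 lay over Myom1, in a stretch where HSPCs listed 21 pairs of this bait and neutrophils listed 3. The second bait had 64 HSPC pairs and 1 neutrophil pair, and its largest group of neighbours, 6 contacts, lay over Smchd1, a silencing factor of the inactive X. Vars and Vwa7 share a bait with 18 progenitor contacts, 1 neutrophil pair and no shared contact, and 15 of the 18 fell in a stretch of 83.4 kb holding Bag6, Csnk2b, Prrc2a and 8 other genes. The other gene-bearing baits of the 12 were Sgk3 (17 contacts), Vcpip1 (15), Ttc19 with Zswim7 (14), 4933405L10Rik with Enkd1 (14) and Cmip (13). Cmip stood apart in having 18 shared contacts beside its 13 progenitor contacts.

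**Figure D3:**
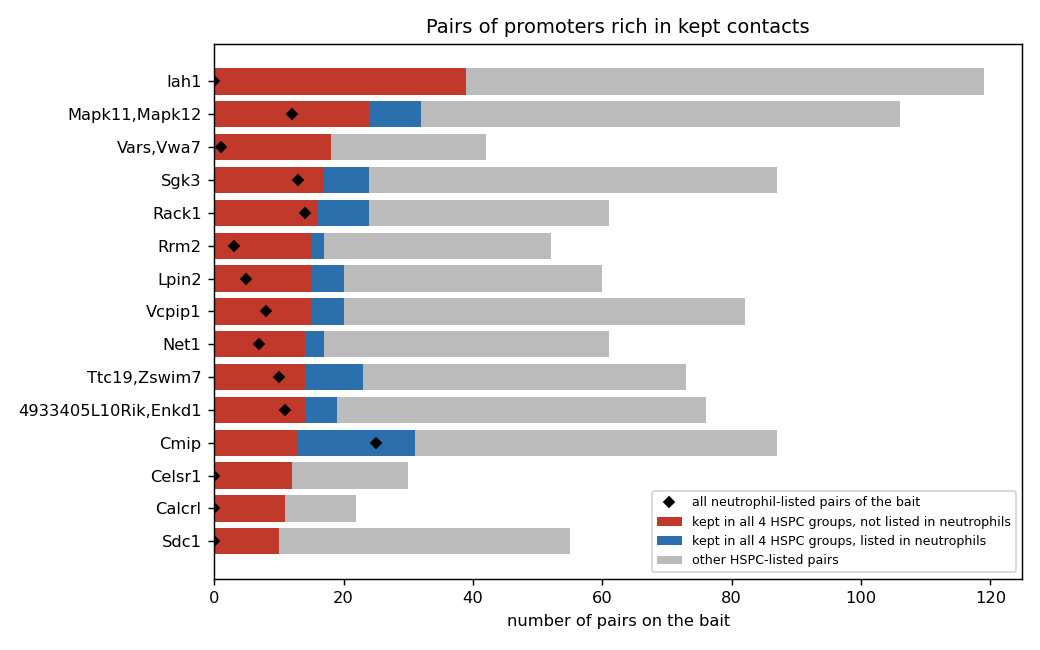
Number of HSPC-listed pairs per bait for the 12 gene-bearing baits with the most progenitor contacts and for Celsr1, Calcrl and Sdc1, split into progenitor contacts (red), shared contacts (blue) and other pairs (grey); diamonds are all neutrophil-listed pairs of the bait. Diamonds lie at 0 for Iah1, Celsr1, Calcrl and Sdc1 and at 25 for Cmip.

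Among the 34 baits with 5 or more progenitor contacts and no neutrophil pair, Celsr1, Calcrl and Sdc1 were picked for description after their values were seen. Calcrl, a receptor subunit for adrenomedullin and calcitonin gene-related peptide, held 11 progenitor contacts among only 22 HSPC pairs. All 11 ended 377 to 419 kb from the promoter. Their mean scores were 8.77 and 9.97 in DM, 10.5 and 10.9 in Flt3-ITD, 8.83 and 11.95 in Npm1c and 10.5 and 8.71 in WT HSPCs, and each mutant group overlapped WT. Celsr1, an atypical cadherin of planar cell polarity, held 12 of 30 pairs, 11 of them in a stretch of 74.9 kb over Celsr1 itself and Trmu. Its means were 12.9 and 12.5 in DM, 12.4 and 12.5 in Flt3-ITD, 12.4 and 12.9 in Npm1c and 10.3 and 11.9 in WT HSPCs, so all 6 mutant libraries lay above both WT libraries. That order was not tested on its own. No Celsr1 member was called by limma, and because the rule used these scores nothing is read from that. Sdc1, the plasma cell proteoglycan syndecan-1, held 10 of 55 pairs.

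Some baits carry no gene end and are described by the gene they lie in. Baits within Ubap2 on chromosome 4 (chr4:41211014-41212728 and chr4:41202705-41211013) held 18 and 14 progenitor contacts. Their largest groups fell over Nfx1, a zinc finger regulator, in stretches of 37.8 and 60.8 kb. A bait within Nfx1 (chr4:40990768) held 11, of which 7 fell back over Ubap2. None of the 3 baits had a neutrophil pair, so both readings of this contact were missing there. A bait within Smarca5, a chromatin remodelling ATPase, held 15 contacts at about 1 Mb, between 997 and 1077 kb, and 14 of them covered Abce1 and Otud4. In that stretch HSPCs listed 22 pairs of this bait and neutrophils listed 3. The mean scores over the 15 were 17.0 and 17.1 in DM, 28.9 and 31.6 in Flt3-ITD, 25.4 and 30.3 in Npm1c and 21.6 and 19.1 in WT HSPCs. DM was lowest and Flt3-ITD and Npm1c were above WT in every library. A bait within Hspa9, a mitochondrial chaperone, held 15 contacts over Matr3 at 621 to 656 kb and no neutrophil pair.

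Taking 1 contact per gene-bearing bait, the 10 with the highest lowest score over the 8 HSPC libraries included 4 whose other end lies on unplaced or unlocalized sequence (from Glycam1, Agrn, Isg15 and Mroh2a). Glycam1 reached 64.7 in its lowest library. Such sequence has no known distance, and these 4 were outside the limma test. The first placed one was a Celsr1 contact of 130 kb, below contacts of the gene-less bait within Smarca5 that reached 23.3 and 21.6 in their lowest library. It stood at 23.5 and 22.2 in DM, 19.4 and 17.4 in Flt3-ITD, 25.6 and 18.6 in Npm1c and 18.7 and 23.8 in WT HSPCs. Aldh8a1, a retinal dehydrogenase, met Sgk1, a serum-induced kinase, over 620 kb. That pair scored 19.5 and 26.0 in DM, 32.1 and 32.5 in Flt3-ITD, 23.8 and 34.0 in Npm1c and 26.4 and 16.4 in WT HSPCs, and the Aldh8a1 bait had no neutrophil pair. Abt1 met sequence near H2ac12 over 1397 kb, Nup54 met Ccdc158 over 241 kb and Ms4a6d met Mrpl16 over 168 kb, each at 15.4 or more in every library.

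Far contacts read from both sides included Klre1 with Styk1 over 1772 kb and Styk1 with Klrd1 over 1754 kb, in the natural killer receptor region of chromosome 6. The Klre1 to Styk1 pair scored 30.9 and 31.8 in DM, 23.6 and 15.03 in Flt3-ITD, 10.8 and 16.7 in Npm1c and 10.2 and 32.9 in WT HSPCs, where the WT replicates were the lowest and the highest of the 8 libraries. The Styk1 to Klrd1 pair scored 18.1 and 20.5 in DM, 19.0 and 23.1 in Flt3-ITD, 16.3 and 18.3 in Npm1c and 14.2 and 10.5 in WT HSPCs, with every mutant library above both WT libraries. A bait within Ybx3 nearby held 22 progenitor contacts, at a median of 1785 kb. The widest of the 5 such contacts named here was a bait on chromosome 11 with sequence near Arl4d, 14213 kb away, at 11.4 and 26.5 in DM, 51.2 and 50.5 in Flt3-ITD, 15.4 and 66.0 in Npm1c and 23.9 and 22.2 in WT HSPCs. Its DM and Npm1c replicates disagreed by more than 2-fold. A bait on chromosome 2 with Lgr4 over 285 kb completed the 5 reciprocal contacts with the highest scores.

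Linked through common fragments, the progenitor contacts formed 1362 separate groups, of which 765 were a single link and 93 had 10 or more. The largest held 88 links over the histone genes of chromosome 13, and another of 59 links joined Gapdh, Cd4, Chd4, Ing4 and their neighbours on chromosome 6. One fragment on chromosome 7 that overlaps no protein-coding gene was met by 15 baits, among them those of Dmkn and the free fatty acid receptor genes Ffar1, Ffar2 and Ffar3. A fragment over S100a14 was met by 7, all of them S100 genes, which encode small calcium-binding proteins.

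Genes of a given lineage were neither all present nor all absent. Of 10789 genes with a listed bait 19.2% held a progenitor contact, and 16.9% held a shared contact. These shares are the background for 12 lists chosen with earlier results of these data known. Of 20 stem and progenitor genes with a bait 4 (20%) held one, namely Zfp36l2 with 4, Hhex and Hlf with 2 each and Mycn with 1. They make up 9 of the 10 kept pairs of the list (90%), and progenitor contacts make up 51.1% of kept pairs over all genes. In the other lists this share ran from 22.2% (2 of 9 kept pairs, early granulocyte and monocyte) to 71.4% (5 of 7, HoxA and HoxB), so each rests on few pairs. Pairs were counted per gene. The 5 of HoxA and HoxB therefore hold the same 2 pairs under both Hoxa3 and Hoxa7, which share a bait, and the 71.4% is not a share of distinct pairs. Zfp36l2, an RNA-decay factor, also had a pair just outside the threshold. Mycn, a growth-promoting transcription factor, met sequence near Cyria over 516 kb at 15.2 and 10.1 in DM, 13.5 and 13.4 in Flt3-ITD, 14.3 and 10.1 in Npm1c and 11.8 and 7.54 in WT HSPCs. The Mycn bait had no neutrophil pair, nor had that of Hlf, a stem cell transcription factor that met Stxbp4 over 245 kb. The Hhex bait had 5 neutrophil pairs, and its 2 progenitor contacts each had one within 25 kb. The Zfp36l2 bait had 2 neutrophil pairs, and 0 of its 4 progenitor contacts had one within 25 kb.

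The HoxA and HoxB list, which also names Pbx3, showed contacts for 3 of 15 genes with a bait. The bait shared by Hoxa3 and Hoxa7 met sequence beside Snx10, 625 kb away, at 7.58 and 8.34 in DM, 7.09 and 9.08 in Flt3-ITD, 10.4 and 8.83 in Npm1c and 10.0 and 9.72 in WT HSPCs. Hoxa11 met sequence 1066 kb away at 16.4 and 27.5 in DM, 17.8 and 17.3 in Flt3-ITD, 16.1 and 26.2 in Npm1c and 11.6 and 7.08 in WT HSPCs. All 6 mutant libraries exceeded both WT libraries for this Hoxa11 contact. Like every member it was not called by limma, and because the rule used these scores nothing is read from that. No bait of the HoxA set named here had a neutrophil pair.

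Among 33 cell cycle and replication genes 5 held a progenitor contact and 12 a shared contact. Rrm2 carried 15 of their 25 progenitor contacts, and Rrm1, the large subunit of the same enzyme, carried 4 against 12 shared contacts. Rrm1 had 20 neutrophil pairs, and all 4 of its progenitor contacts had a neutrophil pair within 25 kb. Cdc6 and Mcm5, which license replication origins, held 2 each. Erythroid genes held progenitor contacts for 5 of 20 (among them Car2 with 5, and Trim10 and Urod with 2 each) and shared contacts for 7. The Car2 bait had 21 neutrophil pairs, and all 5 of its progenitor contacts had one within 25 kb. Mature neutrophil genes held them for 6 of 22, among them S100a9, Ifitm6 and Cxcr4, and shared contacts for 7. The Cxcr4 bait had 36 neutrophil pairs, and its 1 progenitor contact at 241 kb lay beside a listed neutrophil fragment.

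Of 20 chromatin regulators mutated in myeloid leukaemia 5 held a progenitor contact. Eed, a Polycomb subunit, met Tmem126a over 478 kb at 26.2 and 20.5 in DM, 16.9 and 13.3 in Flt3-ITD, 11.1 and 14.3 in Npm1c and 9.47 and 8.86 in WT HSPCs, with all mutant libraries above WT. The reverse pair, from the Tmem126a bait, was listed but fell to 2.77 in its lowest HSPC library, so only 1 direction met the rule. A neutrophil pair of the Eed bait ended 14.9 kb from this other end. Cytokine signalling genes held one for 4 of 16: Jak2, a non-receptor kinase of cytokine signalling, met Ak3 over 206 kb, and Bcl2l1, a survival factor, met Id1 over 102 kb. All 4 progenitor contacts of Jak2 had a neutrophil pair within 25 kb. Megakaryocyte genes held one for 3 of 10, early granulocyte and monocyte genes for 2 of 13, and B, T and NK genes for 3 of 16, with Zap70 at 451 kb. The Zap70 pair scored 11.3 and 10.2 in DM, 12.3 and 20.9 in Flt3-ITD, 8.99 and 11.8 in Npm1c and 21.4 and 19.7 in WT HSPCs. Housekeeping genes held one for 5 of 18 (Gapdh with 7) and genes listed as neural and silent in blood for 1 of 11, Grin1. That neural list also names Eomes, which is in the B, T and NK list too, so its label does not hold for every gene. The Gapdh bait had no neutrophil pair, but its fragment was the other end of 5 listed neutrophil pairs. No list was tested.

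**Figure D4:**
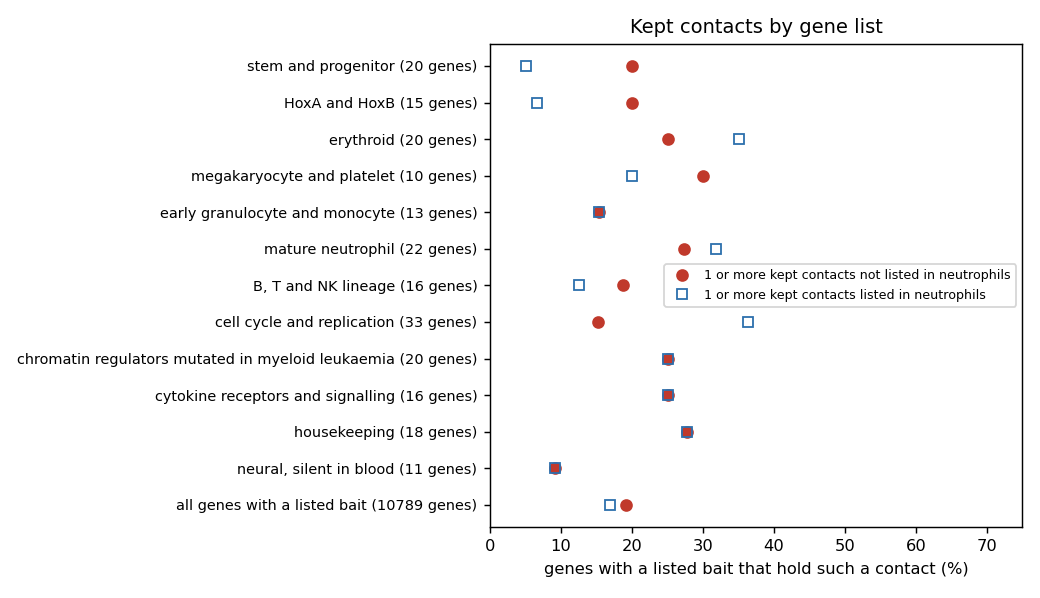
Share of genes with a listed bait that hold at least 1 progenitor contact (red dots) or shared contact (blue squares), by gene list. Red dots lie between 9.09% and 30% around 19.2% for all genes, and the blue square for all genes is at 16.9%; cell cycle genes show 15.2% with a progenitor contact and 36.4% with a shared contact.

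Contacts that both WT cell types list were also compared. For each promoter with at least 5 pairs at 5 or more in both replicates of both WT cell types, the mean log2(score + 1) over those pairs was compared between WT neutrophils and WT HSPCs with limma. No progenitor contact can be among these pairs, but the same WT libraries chose the members. A promoter that scores lower in neutrophils throughout gains progenitor contacts through the rule, so the values by number of progenitor contacts are a description and support nothing. Of 402 promoters 3.23% (13) were higher and 1.24% (5) were lower in neutrophils, with a median difference of 0.07 on the log2 scale. Of the 255 with a progenitor contact 1 was higher and 4 were lower, and the median was -0.002. Of the 67 with 5 or more 0 were higher and 3 were lower (19 at an unadjusted p under 0.05), 17 had a positive difference, and the median was -0.21. The 147 without a progenitor contact had 12 higher, 1 lower and a median of 0.19.

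The bait within Ybx3 had the most negative difference, at 3.08 and 2.95 in WT neutrophils and 4.21 and 3.98 in WT HSPCs (mean log2(score + 1) over 5 shared pairs). The difference was -1.08 (SE 0.165, adjusted p = 0.0024, limma, n = 2 each). Net1 stood at 3.00 and 3.02 in WT neutrophils and 3.68 and 3.57 in WT HSPCs, a difference of -0.62 (SE 0.160, adjusted p = 0.0367, limma). The replicates of each cell type lay apart from the other cell type for both. The bait of Vars with D17H6S56E-5 (-0.72, adjusted p = 0.0463) and that of Fbxo24 with Pcolce (-0.78, adjusted p = 0.0367, both limma) were also lower. Nepro was the 1 higher, at 3.90 and 3.88 in WT neutrophils and 3.21 and 2.94 in WT HSPCs. Its difference was 0.82 (SE 0.165, adjusted p = 0.0092, limma), and it holds 1 progenitor contact. Lpin2 missed the threshold at -0.59 (adjusted p = 0.0524, limma), and Rack1, Sgk3 and Vcpip1 had differences of -0.31, -0.09 and 0.03 that did not pass. None of the 18 calls stood when WT HSPC replicate 2 was left out or the replicate number was a block (0 calls each by limma, with 64 and 90 promoters at an unadjusted p under 0.05).

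**Figure D5:**
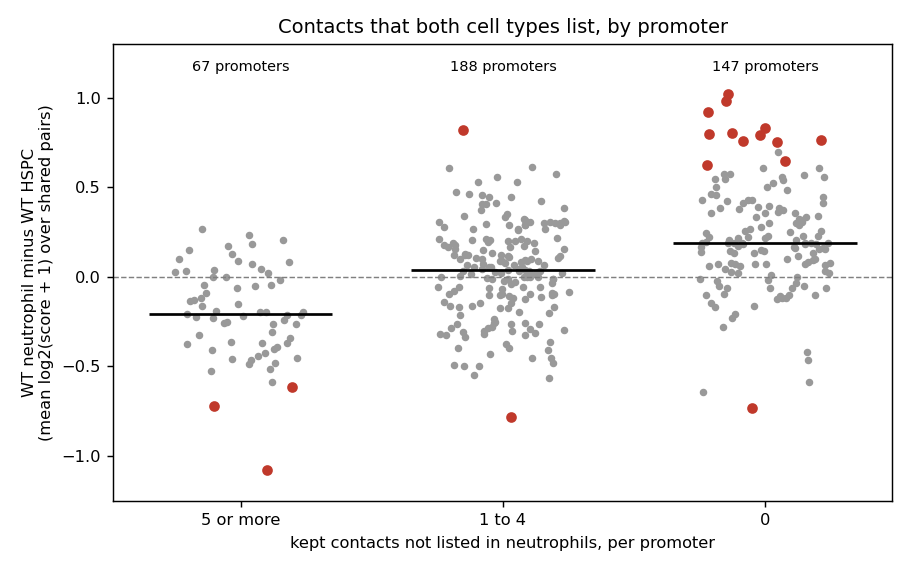
Difference between WT neutrophils and WT HSPCs in the mean log2(score + 1) over contacts that both list, 1 point per promoter, by number of progenitor contacts on it; lines are medians and red points passed the limma test. The same WT libraries chose the progenitor contacts, so the split is a description; the medians are -0.21 with 5 or more progenitor contacts and 0.19 with 0.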

How the data were processed

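Promoter-capture Hi-C scores were read for 8 HSPC and 2 neutrophil libraries on mm10, per the submitters' processing notes. The deposited values are interaction scores per HindIII fragment pair (unit: score), with no counts. The aligner and the caller are not given in the sources used here. Pairs were matched between lists on the coordinates of both fragments. The members and gene lists were chosen with earlier results of these data known.

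Genes were placed on baits by RefSeq gene starts, or by either end where no start was tabulated. limma 3.58.1 (R 4.3.3) was fitted to log2(score + 1), over all 88421 assembled pairs and over promoter means of shared pairs, two-sided, with Benjamini-Hochberg adjustment at 0.05. A run on simulated data set differences larger than any seen between promoter means, so nothing is read from it. p-values measure only the spread between 2 replicates a group. Named items were the 12 gene baits with most members, the 10 highest pairs, up to 4 genes per list, the 5 highest far and 5 highest reciprocal contacts and the baits called. The labels do not say whether replicate numbers pair samples. Correlations of same-numbered deviations ran from -0.07 to 0.06, which shows no pairing but cannot exclude it. Other thresholds, offsets, normalizations, windows and left-out libraries were tried.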

Additional observations from a re-analysis of the deposited data

How the results depend on the processing

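The number of progenitor contacts was 994 at a threshold of 7 and 158 at 10, 2651 with the stricter match to the neutrophil list, and 5032 to 6398 when 1 HSPC library at a time was not required. Their median distance was 196 kb at a threshold of 7, 242 kb at 10 and 174 to 183 kb without 1 library. A neutrophil pair lay within 10 kb for 33.9% of them and within 50 kb for 49.9%. In each mutant contrast 0 members were called by limma, in the main run and under the other offset, normalization, filter and replicate block. Members at an unadjusted limma p under 0.05 numbered 214, 213 and 147 in the main run for DM, Flt3-ITD and Npm1c. Under those alternatives they numbered 164 to 249, 122 to 220 and 109 to 153. Over all pairs, calls fell to 13 in DM, 21 in Flt3-ITD and 1 in Npm1c with a mean score of at least 5 (509, 502 and 274 without that filter), to 0 in DM, 0 to 3 in Flt3-ITD and 0 in Npm1c without 1 library, and to 287 in DM with the replicate block.

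Promoters called over shared pairs (18, of which 5 have a progenitor contact and 3 have 5 or more) became 52, 22 and 10 with quantile normalization and 29, 12 and 5 with 3 or more pairs. With 10 or more pairs 8 with a progenitor contact were called, and with scores of 7 or more 0 of those with 5 or more. The direction among promoters with a progenitor contact changed, from 1 higher and 4 lower in the main run. It was 6 higher and 2 lower with 10 or more pairs, and 4 and 1 with scores of 7 or more. Quantile normalization gave 7 higher and 15 lower, and 3 or more pairs gave 2 and 10. The replicate block gave 0, 0 and 0, and the labels do not say whether replicate numbers pair these samples. Without 1 library the counts ran from 0 to 24, 0 to 10 and 0 to 2, with 0, 0 and 0 without WT HSPC replicate 2, 11, 3 and 1 without WT HSPC replicate 1, and 10 with a progenitor contact without neutrophil replicate 1. The Ybx3 bait (-1.19 to -0.97) and Nepro (0.69 to 0.95) kept their side of the threshold in 6 of 8 alternatives each, Fbxo24 with Pcolce in 3 of 8, and Net1 and Vars with D17H6S56E-5 in 2 of 8 each. Some differences that were not called changed sign: without 1 library Cmip ran from -0.36 to 0.036, Sgk3 from -0.25 to 0.074 and Vcpip1 from -0.12 to 0.19, and Cmip was 0.010 with scores of 7 or more. The cause of these changes was not tested. Depth is unknown.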

Other observations

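By chromosome, the share of kept contacts that neutrophils lack ran from 42.3% on chromosome 5 (162 of 383) to 70.1% on the X chromosome (54 of 77), with 67.3% on chromosome 18 and 63.1% on chromosome 15. Progenitor contacts with a gene start on the bait pointed downstream of it in 54.4% of cases, against 49.8% of shared contacts, and ended inside the bait's own gene in 4.88%, against 5.72%. Neither feature was tested.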
